A study of Mus musculus with 48 samples.

Results

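Acot1, Acot2, Acot3 and Acot4 are 4 acyl-CoA thioesterase genes that lie side by side on mouse chromosome 12. They were found by gene name among the non-control probes of a one-colour liver microarray, which holds 6 probes for these 4 genes among 56605 probes for 37074 gene names. All 4 genes and all 6 probes passed the filter on dim probes, as did 20486 genes in all. The values come from 48 arrays, 1 per male mouse, in 8 groups of 6. Mice with p110α deleted in hepatocytes (p110αhep-/-, labelled LKO) carried a floxed p110α gene and an albumin-Cre transgene, which is active in hepatocytes. Their floxed littermates without Cre (p110αhep+/+, labelled LWT) served as controls, so both genotypes carried the floxed alleles. From 12 weeks of age, mice of each genotype received a control diet (CTRL) or a high-fat diet (HFD, 60% of calories from fat) for 12 weeks. At the end they were either fed ad libitum or fasted for 24 h, and all were killed at ZT16, that is 16 h after lights on.

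Acyl-CoA thioesterases split acyl-CoAs into free fatty acids and coenzyme A. They thereby set how much activated fatty acid and how much free coenzyme A a compartment holds. Acot1 encodes the cytosolic enzyme of the cluster and Acot2 its mitochondrial relative, while Acot3 and Acot4 encode peroxisomal enzymes, of which Acot4 also acts on succinyl-CoA. In rodent liver these genes are known targets of PPARα, the nuclear receptor that fatty acids activate during fasting.

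The probes are shown because near-identical relatives can share signal on an array. Each probe has 60 bases, and the first 30 bases of the brightest probe of each gene, written 5′ to 3′ as in the array design with mm9 coordinates of the whole probe, are as follows.
Acot2 probe, chr12:85334553-85334612: atggtagaaggagagaacaaactctgacaa
Acot1 probe, chr12:85358452-85358511: tatcaaaatagtgctgattcaagggctggg
Acot4 probe, chr12:85384821-85384880: tgctggatgacatgaaattcatgtttaggg
Acot3 probe, chr12:85400452-85400511: gtgtacacacacacatatacacacaagcac
Over their full lengths, the 6 probes shared at most 9 bases in a row with any probe of another gene of the cluster (Acot1 to Acot6). With probes of any other gene on the array the longest shared run was 13 to 21 bases, the 21 bases being the repeat of the Acot3 probe, which an Itgam probe also holds. Acot3 has a second probe without this repeat, at chr12:85401016-85401075, and Acot4 a second probe at chr12:85384162-85384221. Over the 48 arrays the correlation between the 2 probes of a gene was 0.98 for Acot3 and 0.97 for Acot4. These runs compare probe with probe, not probe with transcript. Hybridisation of a probe to transcripts of the other cluster genes, or to transcripts not represented on the array, was therefore not tested. The level of one probe is never set against that of another below, because probes differ in brightness.

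The genes share their neighbourhood and many of their changes, so their upstream sequences are given. In RefSeq (GRCm38.p6) all 4 lie on the plus strand within 72.5 kb, in the order Acot2, Acot1, Acot4 and Acot3, with Acot5 and Acot6 next in line. For each gene, the 250 bases before the start site follow, with capitals for 2 motifs searched on both strands. They are CCAAT, a common promoter motif, and AGGTCA, the half-site that PPARα and other nuclear receptors bind, and they do not overlap each other here.
Acot2, chr12:83987611-83987860: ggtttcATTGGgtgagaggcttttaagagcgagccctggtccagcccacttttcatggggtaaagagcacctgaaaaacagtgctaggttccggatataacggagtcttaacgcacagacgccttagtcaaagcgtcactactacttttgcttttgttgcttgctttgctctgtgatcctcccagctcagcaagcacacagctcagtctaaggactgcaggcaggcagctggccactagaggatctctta
Acot1, chr12:84009252-84009501: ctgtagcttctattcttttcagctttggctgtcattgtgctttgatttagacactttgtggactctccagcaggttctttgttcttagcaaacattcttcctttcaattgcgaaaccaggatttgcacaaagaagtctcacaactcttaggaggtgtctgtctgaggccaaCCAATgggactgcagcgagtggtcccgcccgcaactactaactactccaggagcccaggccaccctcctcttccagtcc
Acot4, chr12:84038129-84038378: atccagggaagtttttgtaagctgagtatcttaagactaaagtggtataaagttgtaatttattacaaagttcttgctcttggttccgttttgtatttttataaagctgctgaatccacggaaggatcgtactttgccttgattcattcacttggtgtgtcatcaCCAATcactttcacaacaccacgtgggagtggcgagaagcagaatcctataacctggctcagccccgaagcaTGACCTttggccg
Acot3, chr12:84051894-84052143: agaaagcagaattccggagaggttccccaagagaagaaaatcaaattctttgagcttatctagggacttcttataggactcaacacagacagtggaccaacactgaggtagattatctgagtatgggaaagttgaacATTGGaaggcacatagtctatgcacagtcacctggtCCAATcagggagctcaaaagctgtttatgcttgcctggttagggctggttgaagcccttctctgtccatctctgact
AGGTCA was present in 14.0% of the 32851 promoter windows of this length in RefSeq. Acot4 held 1 match, on the minus strand from position -13 to -8 relative to the start site, and the windows of Acot1, Acot2 and Acot3 held none. CCAAT, found in 33.8% of windows, occurred once each in Acot1, Acot2 and Acot4 and 2 times in Acot3. A plus-strand copy began at position -79 in Acot1, -85 in Acot4 and -77 in Acot3. The motifs were chosen after the sequences were seen, and a match describes letters in this window, not binding. For Acot4, another RefSeq model begins 1125 bases upstream of the start site used here.

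The arrays were of even quality: 50.1% to 57.4% of probes were well above background on each, no spot was saturated, and any 2 arrays correlated between 0.973 and 0.997. The 6 member probes were well above background on all 48 arrays. The liver label was borne out by its markers, since all 6 hepatocyte genes checked (Alb, Apoa1, Ttr, Apoh, Cyp2e1, Cps1) were well above background on all 48 arrays. Their summed signal had group means between 20.34 and 20.43 on the log2 scale. The Pik3ca probe, which reads the gene for p110α, was not lower in LKO liver. Its difference from LWT was 0.39 (limma, adjusted p = 0.000403) in fed CTRL, 0.58 (2.79e-07) in fed HFD, 0.07 (0.534) in fasted CTRL and 0.25 (0.0176) in fasted HFD mice. Whether this probe lies in the deleted part of the gene was not examined, so its values do not check the deletion. In whole liver, fewer cells of a type and less RNA per cell cannot be told apart.

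For all 4 genes the highest group mean was that of fasted LKO mice on the CTRL diet and the lowest that of fed LKO mice on the same diet. Between these 2 groups the levels spanned 8.29-fold for Acot1, 9.32-fold for Acot2, 5.39-fold for Acot3 and 2.62-fold for Acot4. For Acot1 the order followed nutritional state, with the 4 fasted groups above the 4 fed groups. For Acot2 and Acot4, fed LWT mice on HFD stood among the fasted groups. For Acot3, fed and fasted LWT mice on HFD had nearly the same mean, 12.53 for both with SDs of 0.23 and 0.39, and the second probe placed the fed group just below the 4 fasted ones, at 9.85 against 9.87 for the lowest of them. Among the 7 pairs of neighbours in each order, the step exceeded the larger of the 2 SDs in 2 pairs for Acot1, 2 for Acot2, 1 for Acot3 and 1 for Acot4. Every one of these neighbouring pairs overlapped in single mice. The plot of levels by group shows the individual arrays.

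**Figure D1:**
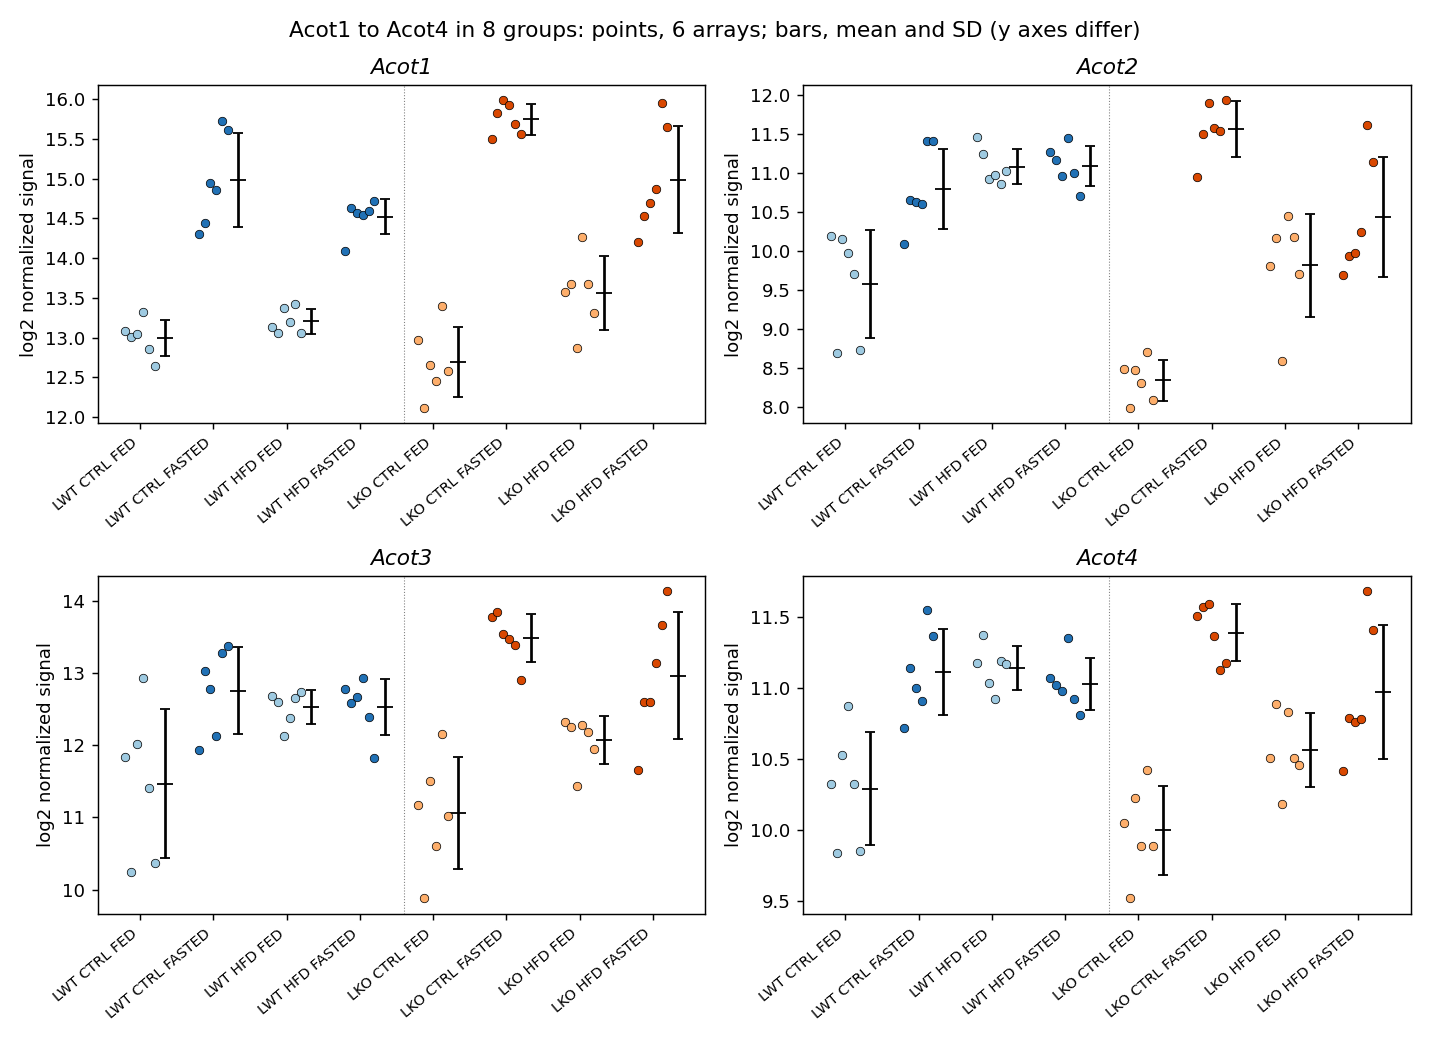
Log2 normalized signal (y axis) of the brightest probe of each gene in the 8 groups (x axis), with 1 point per array and bars for the mean and SD of 6 arrays. The fed LKO CTRL group is lowest and the fasted LKO CTRL group highest in each panel, and fed LWT HFD mice reach the level of fasted LWT HFD mice for Acot2, Acot3 and Acot4 but not for Acot1.

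The first question was how the cluster answered a 24 h fast on the CTRL diet. All 4 genes rose in LWT liver, and Acot1 had the largest fold change of the 4. A gene was called when limma gave an adjusted p of at most 0.05 and the fold change exceeded 1.5. By this rule 2.92% of the 20486 genes tested were called higher in the same comparison. The median log2 fold change of the 4 genes was 1.19, against 0.00 over all genes.

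Acot1 signal in fed LWT CTRL mice ran from 12.64 over a median of 13.03 to 13.32 on the log2 scale, and in fasted mice from 14.30 over 14.91 to 15.72. The groups did not overlap, which held for 5.82% of genes in the upward direction. Fasted mice had 4.12-fold more signal (log2 fold change 2.04 ± 0.20 SE, limma adjusted p = 1.48e-10, n = 6 per group). Acot2, the mitochondrial enzyme, ran from 8.70 over 9.84 to 10.20 in fed and from 10.09 over 10.64 to 11.41 in fasted mice. Here 2 fed mice (replicates 1 and 3) lay above the lowest fasted mouse, so the groups touched. The rise was 2.21-fold (1.14 ± 0.25, adjusted p = 0.000347).

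Acot3, a peroxisomal enzyme, was widely spread in fed LWT CTRL mice, from 10.25 over 11.62 to 12.93, and lay between 11.93 and 13.38 with a median of 12.90 after fasting. Fed replicate 4, at 12.93, stood above 3 of the 6 fasted mice. The difference of 2.36-fold was nevertheless called (1.24 ± 0.31, limma adjusted p = 0.00182). Acot4 moved the least of the 4, from a fed range of 9.84 to 10.88 (median 10.33) to a fasted range of 10.72 to 11.55 (median 11.07). Fed replicate 4 again reached into the fasted range. Its signal was 1.75-fold higher (0.81 ± 0.15, adjusted p = 5.43e-05). The second probes of Acot3 and Acot4 were also called, at 3.80-fold and 1.58-fold. Within the 2 washing batches of the arrays, with 3 arrays per group each, the log2 differences were 1.67 and 2.48 for Acot1, 0.84 and 1.45 for Acot2, 0.56 and 1.72 for Acot3, and 0.45 and 1.1 for Acot4. In batch 1 only Acot1 was called, and in batch 2 all 4 genes.

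In LKO liver on the CTRL diet the same fast separated fed from fasted mice completely for all 4 genes. Upward separation held for 7.21% of all genes in this comparison, and 3.65% were called higher. All 4 members were called, with a median log2 fold change of 2.72 against 0.00 over all genes. Ranked by log2 fold change among the 20486 genes, Acot2 stood in place 9, Acot1 in place 11, Acot3 in place 24 and Acot4 in place 110.

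Acot1 was between 12.12 and 13.40 (median 12.62) in the 6 fed LKO mice and between 15.50 and 15.98 (median 15.75) in the 6 fasted mice. The gap between the groups was larger than either range. The fold change was 8.32 (log2 fold change 3.06 ± 0.21, limma adjusted p = 2.61e-15). Acot2 lay between 7.99 and 8.70 (median 8.39) fed and between 10.95 and 11.93 (median 11.56) fasted. Among the brightest probes its change was the largest of the 4, 8.91-fold (3.16 ± 0.25, adjusted p = 2.18e-13).

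Acot3 spread from 9.88 over 11.10 to 12.15 in fed LKO mice and from 12.91 over 13.50 to 13.84 in fasted ones. As in LWT mice, the fed group varied more than the fasted one. It rose 5.22-fold (2.39 ± 0.32, limma adjusted p = 6.89e-08), and 10.6-fold by its second probe. Acot4 lay between 9.52 and 10.43 (median 9.97) fed and between 11.13 and 11.60 (median 11.44) fasted, a rise of 2.61-fold (1.39 ± 0.16, adjusted p = 1.51e-09). Summed cholangiocyte markers lay between 9.25 and 9.84 in fed and between 8.69 and 9.19 in fasted LKO CTRL mice, without overlap, with Spp1 and Krt19 called lower, and Spp1 was also called lower in LWT CTRL liver. Endothelial Lyve1 was called higher with fasting in LKO liver on both diets, and stellate cell Lrat lower in LWT CTRL liver. The part of these markers in the fasting effects was not tested. Both washing batches gave calls for all 4 genes, with log2 differences of 2.89 and 3.26 for Acot1, 2.76 and 3.35 for Acot2, 2.30 and 2.61 for Acot3, and 1.33 and 1.46 for Acot4.

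Whether the fasting response differed between genotypes on the CTRL diet was tested as the difference of the 2 differences. It was called for Acot1 and Acot2, with 0.639% of genes called in this direction. The response of Acot2 was 2.01 log2 units larger in LKO liver (95% interval 1.30 to 2.72, limma adjusted p = 0.000649). That of Acot1 was larger by 1.01 (0.43 to 1.60, adjusted p = 0.0375). For Acot3 the estimate was 1.15 (0.26 to 2.04) and for Acot4 0.58 (0.14 to 1.02), and neither passed after adjustment (0.14 and 0.131). The second probe of Acot4 passed, at 0.84 (adjusted p = 0.0198). The call for Acot1 was fragile. It was lost, at 0.87 to 1.04 with adjusted p of 0.05 to 0.0778, on leaving out any 1 of 15 arrays: fasted LWT CTRL replicates 1, 2, 3 or 4, fed LWT CTRL replicates 1, 3, 4 or 5, fasted LKO CTRL replicates 2, 3 or 4, or fed LKO CTRL replicates 2, 3, 4 or 6. It was also lost, with limma adjusted p of 0.051 to 0.101, without array weights, the filter or the washing correction and with only the groups compared. The call for Acot2 held whichever array was left out. Without fed LWT CTRL replicate 6, Acot3 was called as well, at 1.44. Within the batches the estimates were 1.22 and 0.78 for Acot1, with neither called, and 1.92 and 1.90 for Acot2, called in batch 1.

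On the HFD, Acot1 was called higher after fasting in both genotypes, and the brightest probes of the other three were not called. In LWT mice 2.25% of genes were called higher. Acot1 ran from 13.05 over 13.17 to 13.42 in fed LWT HFD mice and from 14.09 over 14.58 to 14.71 in fasted ones. These groups did not overlap, as was true upward for 5.19% of genes, and Acot1 was 2.54-fold higher after fasting (1.35 ± 0.20, limma adjusted p = 9.23e-07).

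Acot2 was at 10.85 to 11.47 in fed and 10.71 to 11.45 (median 11.08) in fasted LWT HFD mice. These ranges nearly coincided, with a difference of 0.06 (95% interval -0.42 to 0.54). Acot3 was at 12.13 to 12.74 (median 12.62) fed and 11.82 to 12.93 (median 12.62) fasted, a difference of 0.05 (-0.55 to 0.66). Acot4 was at 10.92 to 11.38 (median 11.17) fed and 10.81 to 11.36 fasted, a difference of -0.07 (-0.37 to 0.23). These intervals bound any change of Acot4 more tightly than that of Acot3.

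In LKO mice on the HFD, 2.75% of genes were called higher after fasting. Acot1 was at 12.87 to 14.27 (median 13.63) in fed and 14.21 to 15.95 (median 14.78) in fasted mice. The highest fed mouse, replicate 4, lay just above the lowest fasted mouse, replicate 1. Acot1 was 2.45-fold higher (1.30 ± 0.23, limma adjusted p = 2.66e-05).

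Acot2 spread over 8.60 to 10.45 (median 9.99) fed and 9.69 to 11.62 (median 10.11) fasted, with a difference of 0.39 (-0.16 to 0.95). Acot3 spread over 11.44 to 12.33 (median 12.22) fed and 11.65 to 14.13 (median 12.87) fasted, with a difference of 0.76 (0.06 to 1.46, adjusted p = 0.101). Acot4 was at 10.18 to 10.89 (median 10.51) fed and 10.42 to 11.69 (median 10.79) fasted, with a difference of 0.32 (-0.03 to 0.66). Fasted LKO HFD mice were the most variable group for Acot1, Acot2 and Acot4, with SDs of 0.67, 0.77 and 0.47. In that group replicates 5 and 6 had the 2 highest values of all 4 genes. Summed cholangiocyte markers lay between 9.55 and 9.94 in fed and between 8.93 and 9.46 in fasted LKO HFD mice, and Cela2a had group means of 7.45 fed and 8.85 fasted and was called higher, as it was in LWT HFD liver. Their part in these values was not tested. The second probe of Acot3 was called in this comparison (1.15, limma adjusted p = 0.0215), and so was the brightest probe without fasted LKO HFD replicate 1 (1.07, adjusted p = 0.0192).

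The effect of the diet on the fasting response was tested within each genotype. In LKO liver the response was smaller on the HFD for all 4 genes, with 1.78% of genes called lower. The difference of the differences was -2.76 (95% interval -3.52 to -2.01, limma adjusted p = 1.47e-06) for Acot2 and -1.76 (-2.38 to -1.14, adjusted p = 0.000131) for Acot1. It was -1.62 (-2.57 to -0.68, adjusted p = 0.0244) for Acot3 and -1.07 (-1.53 to -0.60, adjusted p = 0.00194) for Acot4. The call of Acot3 was lost, at -1.58 to -1.32, without fasted LKO HFD replicate 1, 2 or 3 or without fed LKO HFD replicate 2. It was also lost without array weights (limma adjusted p = 0.0526) and without the filter on dim probes (0.0584). The second probes of Acot3 (-2.26, limma adjusted p = 0.00353) and Acot4 (-1.32, 0.000131) were called. Within batches 1 and 2 the values were -2.42 and -2.95 for Acot2, -1.66 and -1.91 for Acot1, -1.44 and -2.0 for Acot3, and -0.90 and -1.25 for Acot4. Acot1 and Acot2 were called in both batches, Acot3 and Acot4 in neither.

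In LWT liver the estimates had the same sign and were smaller, and 1 of 4 genes was called, Acot4, with 0.596% of genes called lower. It differed by -0.88 (-1.31 to -0.45, limma adjusted p = 0.0182). The other members, Acot1, Acot2 and Acot3, were at -0.70 (-1.27 to -0.13), -1.08 (-1.78 to -0.39) and -1.18 (-2.05 to -0.31), with adjusted p of 0.203, 0.0846 and 0.145. The call of Acot4 was lost without fasted LWT CTRL replicate 5 (-0.78) or fed LWT CTRL replicate 6 (-0.77), and Acot2 was called without fasted LWT CTRL replicate 1 (-1.22) or fed LWT CTRL replicate 3 (-1.25). In batches 1 and 2 Acot4 was at -0.59 and -1.08, with neither called. The second probe of Acot3 was called (-1.84, adjusted p = 0.0298). On the HFD the fasting response was not shown to differ between genotypes for any of the 4 genes (1.39% of genes called), with limma adjusted p of 0.4 to 0.964 and estimates from -0.05 for Acot1 to 0.71 for Acot3. At an unadjusted p under 0.05, 0 of the 4 brightest probes passed, while the second probe of Acot3 was at 1.06 (0.04 to 2.08, limma unadjusted p = 0.0428, adjusted p = 0.283).

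**Figure D2:**
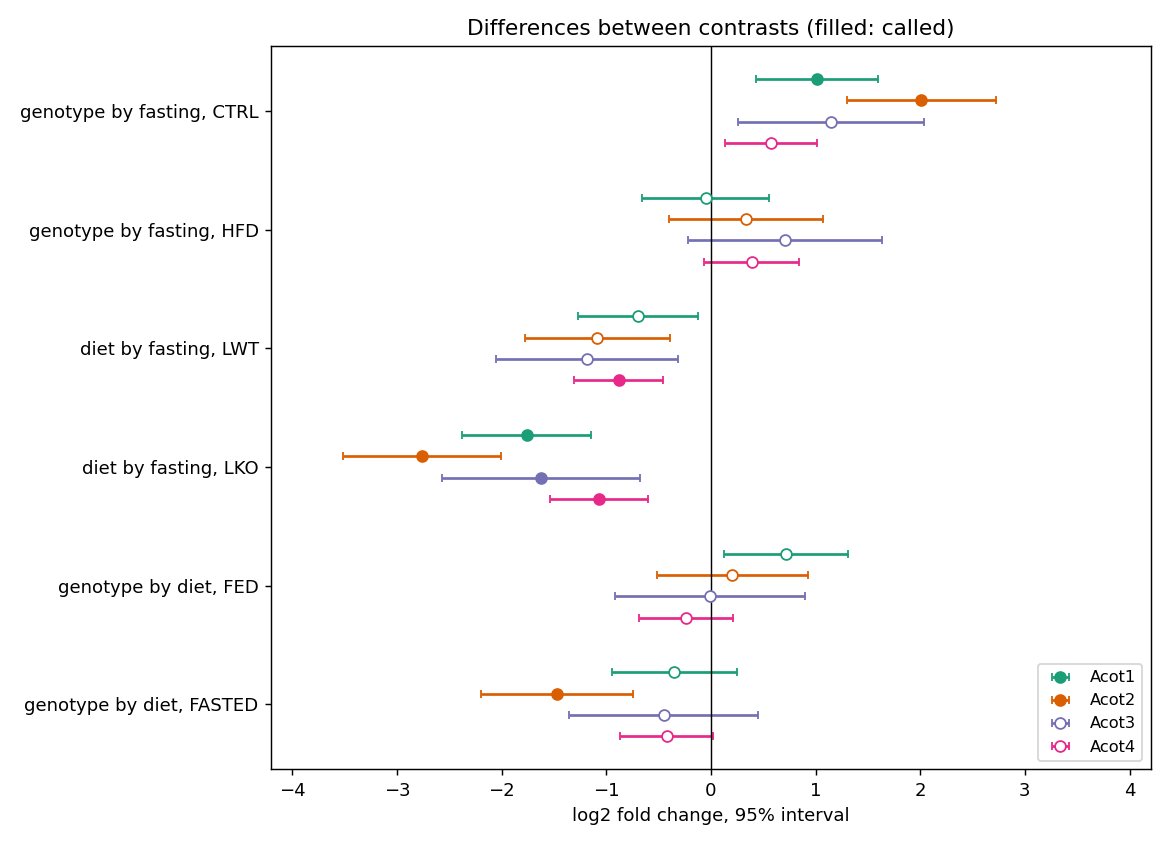
Difference between 2 log2 fold changes (x axis) with its 95% interval for each gene and each pair of factors (y axis). Filled points were called. All 4 genes lie below 0 for diet by fasting in LKO liver. For genotype by fasting on the CTRL diet all 4 intervals lie above 0, and Acot2 and Acot1 were called.

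The next comparison asked what the HFD did in fed liver. These contrasts share their fed and fasted groups with the fasting contrasts above, so the values are not independent of them. In fed LWT mice Acot2, Acot3 and Acot4 were higher on the HFD and were called, with 2.64% of genes called higher. Acot2 rose 2.62-fold (1.39 ± 0.24, limma adjusted p = 3.43e-05), Acot3 2.00-fold (1.00 ± 0.30, 0.0139) and Acot4 1.76-fold (0.81 ± 0.15, 7.5e-05). The HFD and CTRL mice did not overlap for Acot2 and Acot4, which held upward for 5.52% of genes. Acot1 differed by 0.21 (95% interval -0.19 to 0.61). The call of Acot3 was lost without fed LWT CTRL replicate 6, at 0.71. In batches 1 and 2 the differences were 1.57 and 1.13 for Acot2, 0.79 and 0.96 for Acot3, and 0.70 and 0.83 for Acot4. Batch 1 called Acot2 and Acot4, and batch 2 called Acot4.

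In fed LKO mice the HFD raised Acot1 1.89-fold (0.92 ± 0.22, limma adjusted p = 0.00324), Acot2 3.03-fold (1.60 ± 0.27, 3.74e-05) and Acot3 1.99-fold (0.99 ± 0.33, 0.0453). In this comparison 1.29% of genes were called higher. Acot4 was 1.49-fold higher with an adjusted p of 0.0152, just under the fold threshold, and its second probe was 1.61-fold higher and was called. The groups overlapped for each of the 4 genes. Fed LKO HFD replicate 3 lay within the CTRL range of Acot2, at 8.60, and replicates 3 and 6 within that of Acot1, at 12.87 and 13.31. The call of Acot3 was lost, at 0.81 to 1.00, without fed LKO CTRL replicate 1, 2, 4 or 6 or fed LKO HFD replicate 1, 2, 4 or 5. It was also lost without array weights (limma adjusted p = 0.0565), without the filter on dim probes (0.0864) and with the processed signal (0.051). The second probe of Acot3 was called (1.24, limma adjusted p = 0.0214). Acot4 was called, at 0.59 to 0.66, without fed LKO CTRL replicate 3 or 5 or fed LKO HFD replicate 1, 3, 5 or 6. Batch 1 gave 1.14, 1.76, 0.85 and 0.45 for Acot1 to Acot4, with Acot1 and Acot2 called. Batch 2 gave 0.73, 1.37, 1.11 and 0.62, with no gene called. The effect of the HFD in fed liver was not shown to differ between genotypes (1.38% of genes called, adjusted p of 0.186 to 0.993 for the 4 genes). Acot1 came closest, at 0.72 (0.12 to 1.31), and 1 of the 4 had an unadjusted p under 0.05.

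In fasted LWT liver none of the 4 genes was called between the diets, while 2.83% of genes were called in either direction. The differences were -0.49 (-0.90 to -0.09) for Acot1, 0.31 (-0.19 to 0.80) for Acot2, -0.18 (-0.80 to 0.44) for Acot3 and -0.07 (-0.37 to 0.24) for Acot4. By limma 1 of these, Acot1, had an unadjusted p under 0.05. Acot1 was called without fasted LWT CTRL replicate 1 (-0.63) or 2 (-0.62), and with median scaling (-0.71) or the processed signal (-0.62). In fasted LKO liver the direction was downward. Acot2 was 2.24-fold lower on the HFD (-1.16 ± 0.26, limma adjusted p = 0.00244) and Acot1 1.79-fold lower (-0.84 ± 0.22, 0.00785), with 0.971% of genes called lower. Acot4 was at -0.49 (adjusted p = 0.0434), under the fold threshold, and Acot3 at -0.63 (-1.30 to 0.03). The second probe of Acot4 was called lower (-0.64, limma adjusted p = 0.00694), and that of Acot3 was at -1.03 (-1.76 to -0.29, 0.0639) and not called. Leaving out 1 array moved the brightest Acot3 probe between -0.89, without fasted LKO HFD replicate 6, and -0.33, without replicate 1, with no call. The call of Acot1 was lost without fasted LKO HFD replicate 1 (-0.64) or 2 (-0.68), and Acot4 was called without replicate 5 (-0.64) or 6 (-0.60) of that group. In batch 1 the values were -0.52 for Acot1 and -0.65 for Acot2, with neither called, and in batch 2 -1.18 and -1.58, with both called. This diet effect differed between genotypes for Acot2, by -1.47 (-2.19 to -0.75, adjusted p = 0.0125), with 1.31% of genes called lower. That call held whichever array was left out and was made in neither batch alone (-1.29 and -1.53). Among the markers of other cell types, Spp1 of the cholangiocyte list was called higher on the HFD in LWT liver, and the adipocyte list moved with the diet in both genotypes. Summed over its 3 tested genes of 4, adipocyte signal had log2 group means of 8.04 to 11.4 on the CTRL diet and 9.63 to 13.8 on the HFD. Of these 3 genes Cfd was called, higher on the HFD in all 4 diet comparisons and lower in LKO liver in all 4 genotype comparisons, and the defining marker Adipoq was well above background on 6 of 48 arrays. Cela2a, an exocrine pancreas gene, lay between 8.11 and 9.95 on the HFD and between 7.57 and 8.05 on the CTRL diet in fasted LKO liver, and between 5.44 and 6.22 against 6.33 and 7.05 in fed LWT liver. It was called in both comparisons, and its groups did not overlap. The hepatocyte marker Cps1 was called lower on the HFD in fed LWT liver. The part of these markers in the diet and genotype effects was not tested.

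The genotypes differed most clearly at Acot2. In fed liver on the CTRL diet Acot2 was 2.46-fold lower in LKO than in LWT mice (-1.30 ± 0.25, limma adjusted p = 0.000198), and it was the 1 member of 4 called, with 2.2% of genes called lower. A single LKO mouse, replicate 5 at 8.70, touched the lowest LWT mouse, replicate 2. In fed liver on the HFD it was 2.13-fold lower (-1.09 ± 0.25, adjusted p = 0.000869), again as 1 of 4, with 4.03% of genes called lower. Here LKO and LWT mice did not overlap, as was the case downward for 7.04% of genes. Acot4 did not overlap either, at -0.50 (adjusted p = 0.0117), under the fold threshold, and it was called without fed LKO HFD replicate 2 (-0.59). Both calls of Acot2 were made in each washing batch, with -1.20 and -1.46 on the CTRL diet and -1.0 and -1.23 on the HFD. Acot1 and Acot3 on either diet, and Acot4 on the CTRL diet, lay between -0.39 and 0.45 in fed liver and were not called. Acot1 on the HFD was at 0.45 (0.03 to 0.87, adjusted p = 0.099).

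After fasting on the CTRL diet the sign was the opposite. Acot1 was 1.68-fold (0.75 ± 0.20, limma adjusted p = 0.005) and Acot2 1.64-fold (0.71 ± 0.24, 0.0288) higher in LKO liver, with 1.33% of genes called higher. Acot3 was at 0.77 (0.15 to 1.39, adjusted p = 0.0623) and Acot4 at 0.31 (0.01 to 0.61, adjusted p = 0.136). The groups overlapped for each gene, with fasted LWT CTRL replicates 5 and 6 within the LKO range of all 4. The call of Acot2 was lost, at 0.58 to 0.68, without fasted LWT CTRL replicate 1, 2, 3 or 4 or fasted LKO CTRL replicate 3 or 4. It was also lost with the slide as a block (0.67, limma adjusted p = 0.0516), without array weights (0.0501) and without the filter (0.0604). Acot3 was called, at 0.85 to 0.91, without fasted LWT CTRL replicate 5 or 6 or fasted LKO CTRL replicate 6. Its second probe was called at 1.13. In batch 1 Acot1 and Acot2 were at 0.85 and 0.71, and in batch 2 at 0.47 and 0.43, and of these 4 values only that of Acot1 in batch 1 was called. Batch 1 alone also called Acot3 (1.39) and Acot4 (0.60), which were at 0.21 and 0.01 in batch 2.

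After fasting on the HFD Acot2 was lower again in LKO liver, by 1.69-fold (-0.76 ± 0.26, limma adjusted p = 0.0217), with 4.23% of genes called lower. This call was lost, at -0.66 to -0.56, without fasted LKO HFD replicate 1, 2 or 3 or fasted LWT HFD replicate 4. It was also lost without array weights (-0.66, limma adjusted p = 0.067) or the filter on dim probes (-0.71, 0.0546). Within the batches it was -0.58 and -1.09, called in batch 2. Acot1, Acot3 and Acot4 were at 0.40 (-0.04 to 0.83), 0.32 (-0.35 to 0.98) and -0.11 (-0.44 to 0.21). Acot1 was called without fasted LKO HFD replicate 1 (0.59), and fell short of the call by more without replicate 5 (0.19) or 6 (0.24) of that group. Across the 4 genotype comparisons Acot2 was thus lower in LKO liver in 3 and higher in 1. The markers of cholangiocytes moved with genotype. Summed over 4 genes they had log2 group means of 8.99 to 9.72 in LKO and 10.6 to 11.8 in LWT liver, with Spp1 called lower in LKO in all 4 comparisons and Krt19 in 3. Cholangiocyte Epcam was well above background on 18 arrays and Krt7 on 28. The exocrine pancreas gene Cela2a moved the other way, with group means of 7.45 to 8.85 in LKO and 5.86 to 6.79 in LWT liver, no overlap in any of the 4 settings, and a call in each. Of the other exocrine pancreas markers, Pnlip was well above background on 1 array and Prss2 on 0. Hepatocyte Cps1 was called higher in LKO liver in fed mice on both diets and in fasted HFD mice. Endothelial Lyve1 was called lower in fed LKO mice on both diets, and Clec4g higher in fasted HFD mice. Stellate cell Lrat was called lower in fed CTRL mice. Endothelial markers, summed over 4 genes, had group means of 13.81 to 13.99 in LKO and 13.50 to 13.73 in LWT liver. Single mice of the genotypes overlapped in each setting. The part of these markers in the genotype effects was not tested.

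**Figure D3:**
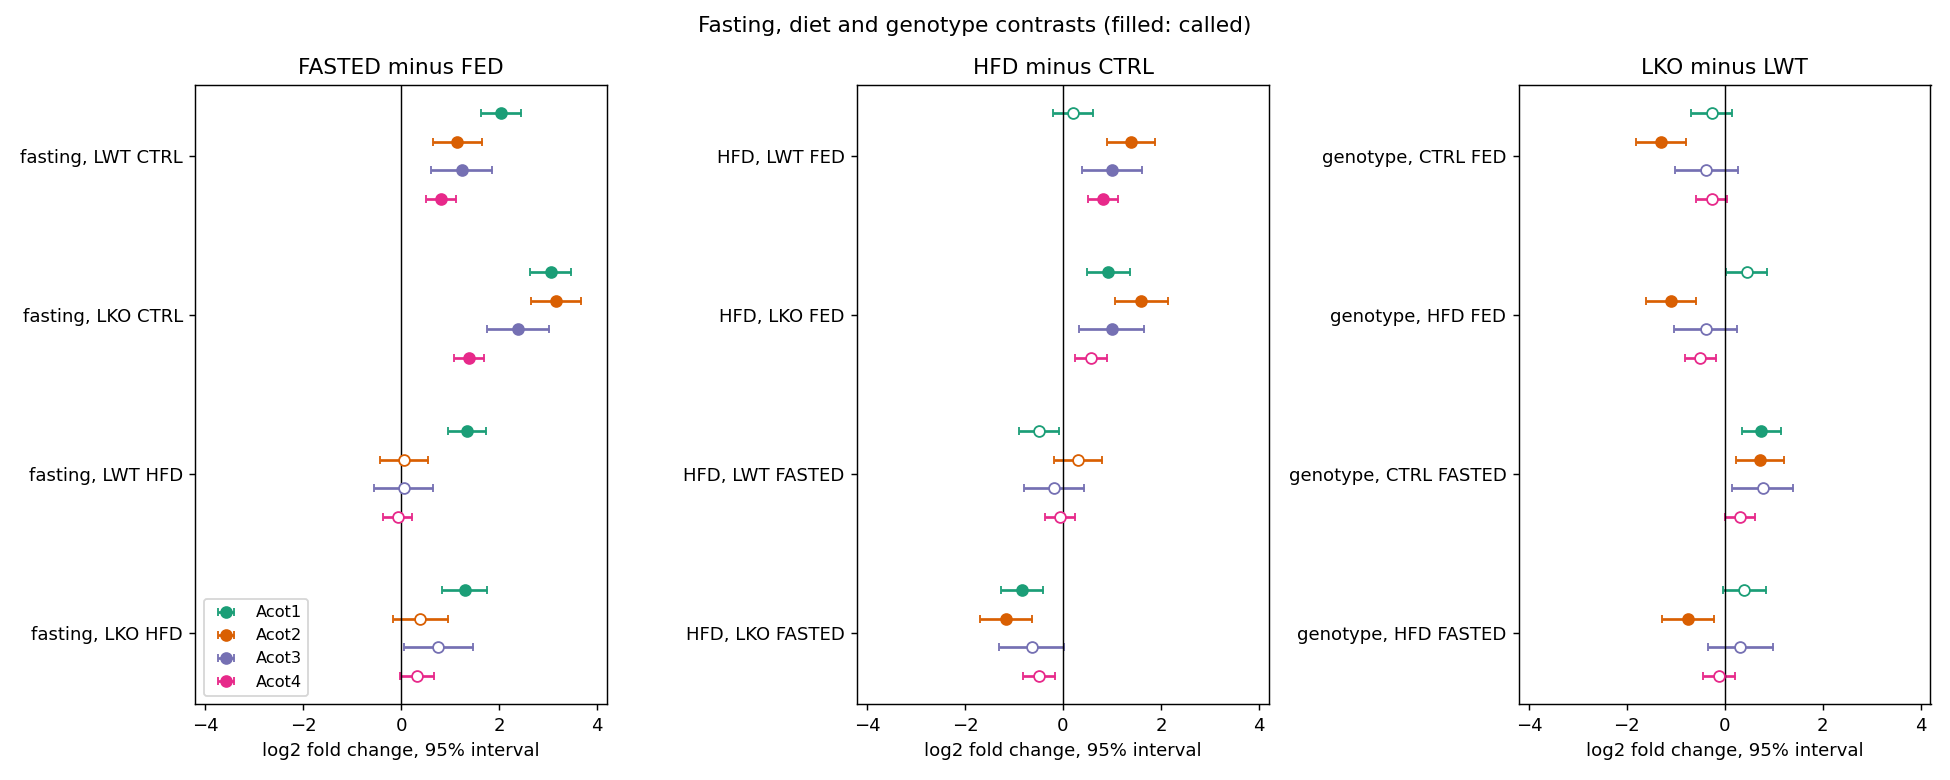
Log2 fold changes (x axis) with 95% intervals of the 4 genes for fasting, diet and genotype (panels) in the 4 settings of each (y axis). Filled points were called. With fasting all 4 genes were called higher on the CTRL diet and, of these brightest probes, that of Acot1 on the HFD, and in the genotype panel the calls of Acot2 lie on both sides of 0.

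The 4 genes also varied together from mouse to mouse. Over 48 arrays their pairwise correlations ran from 0.740 for Acot1 with Acot2 to 0.934 for Acot3 with Acot4. After each group's mean was subtracted they ran from 0.655 for Acot1 with Acot3 to 0.898 for Acot3 with Acot4. The points share arrays and their normalization, so these are descriptions. The single mice behind them can be named. In fed LWT CTRL liver, replicates 2 and 6 had the lowest values of Acot2 (8.70 and 8.74), Acot3 (10.25 and 10.36) and Acot4 (9.84 and 9.86). For Acot2 the other four mice of that group lay at 9.71 or above, so this group was split. In fasted LWT CTRL liver, replicates 5 and 6 had the 2 highest values of all 4 genes. In fed LKO HFD liver, replicate 3 was the lowest mouse for each of the 4 genes.

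Acot1 and Acot2 did not run in parallel in all mice on the HFD. Fed LWT HFD mice combined Acot1 values of 13.05 to 13.42, within or just above the fed CTRL range, with Acot2 values of 10.85 to 11.47, within or just above the fasted CTRL range. The fasted LKO HFD group was mixed. In replicates 1 to 4 the Acot1 values of 14.21 to 14.87 lay among or just below those of fasted LWT CTRL mice, while the Acot2 values of 9.69 to 10.24 lay mostly below them. In replicates 5 and 6 of the same group Acot2, at 11.62 and 11.14, lay within or above the fasted LWT CTRL range. These replicates are singled out after their values were seen.

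**Figure D4:**
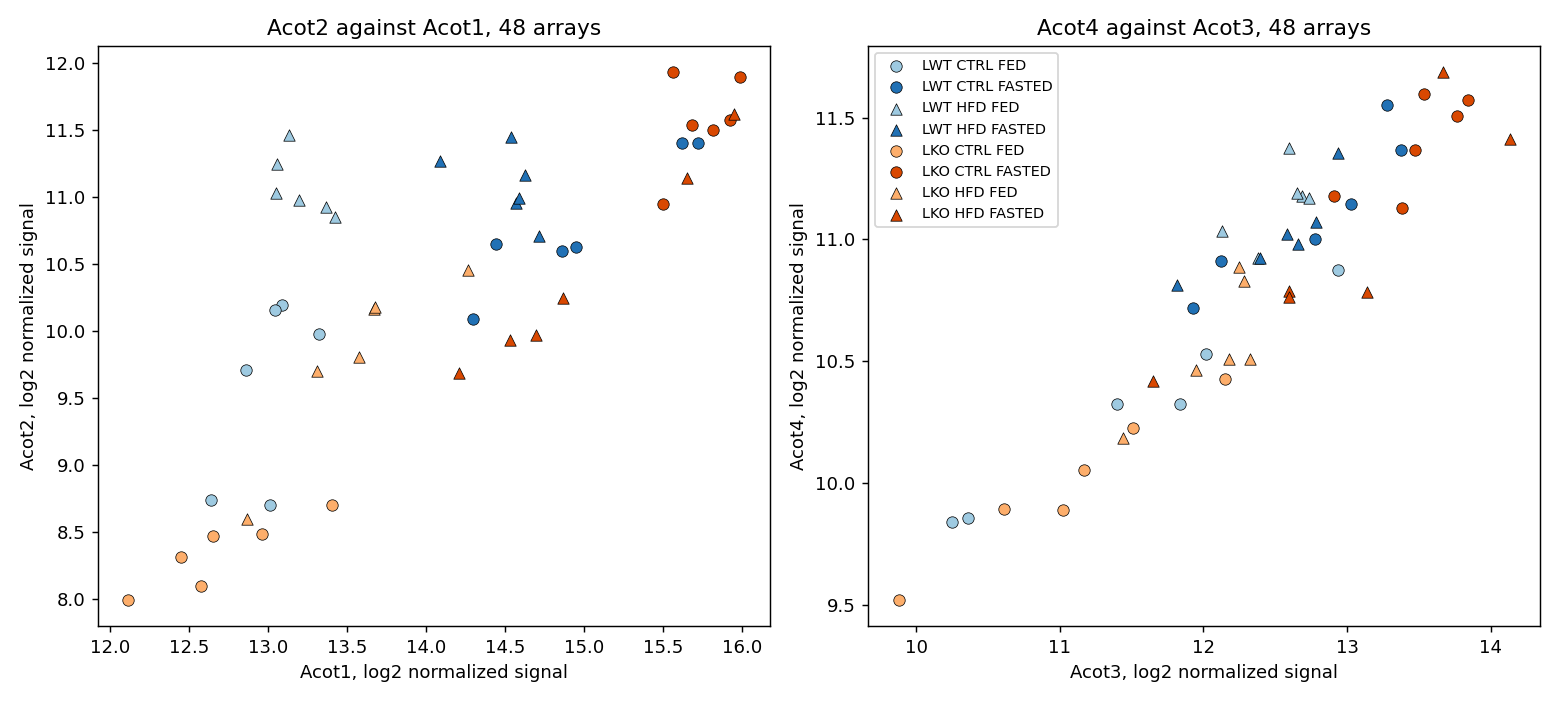
Log2 normalized signal of Acot2 against Acot1 (left) and of Acot4 against Acot3 (right), with 1 point per array, colour for genotype and nutritional state, and circles for CTRL and triangles for HFD. Acot3 and Acot4 fall along 1 line (r = 0.934), whereas fed LWT HFD mice stand off to the upper left in the plot of Acot2 against Acot1 (r = 0.740).

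By correlation over the 48 arrays, each gene's most similar genes outside the 4 were found (brightest probe per gene). For Acot1 these were Acot5 (r = 0.974), the peroxisomal thioesterase next in the cluster, the carnitine transporter Slc22a5 (0.951), Ppp2r2d (0.946), the fatty acid ω-hydroxylase Cyp4a10 (0.945) and Pus10 (0.941). The list for Acot2 held carnitine acetyltransferase Crat (0.951), enoyl-CoA isomerase Eci1 (0.931), acyl-CoA dehydrogenase Acad11 (0.929) and the carnitine-acylcarnitine carrier Slc25a20 (0.919). Acot3 and Acot4 shared 3 of their 5, Gm23952 (0.949 and 0.963), Picalm (0.889 and 0.934) and glycerol kinase, named Gyk in the array design (0.844 and 0.883). Acot3 also had Acot5 (0.896) and Slc16a5 (0.874), and Acot4 had Crat (0.913) and Enc1 (0.889). With group means removed these correlations were between 0.646 and 0.910. The arrays and their normalization are shared by all these points too.

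Of 12 other acyl-CoA thioesterases, 11 were tested. Acot5 rose with fasting in all 4 settings, with log2 fold changes of 1.91 (limma adjusted p = 1.74e-08) in LWT CTRL, 3.41 (4.71e-15) in LKO CTRL, 0.89 (0.0023) in LWT HFD and 1.25 (0.000271) in LKO HFD liver. Its fasting response on the CTRL diet was larger in LKO liver by 1.5 (adjusted p = 0.00607). Acot8, another peroxisomal enzyme, was called higher after fasting in LKO CTRL liver (0.87, adjusted p = 6.2e-13), and Acot12, a cytosolic acetyl-CoA hydrolase, in LWT CTRL liver (0.63, 1.77e-10). Acot6, the last gene of the cluster, was called higher on the HFD in fed LKO liver (0.84, adjusted p = 3.93e-05) and lower in fed LKO than LWT CTRL liver (-0.64, 0.00048).

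Acot11 went the other way. It fell with fasting in LWT (-0.94, limma adjusted p = 0.00171) and LKO (-1.36, 1.54e-05) liver on the CTRL diet and was lower in LKO liver in all 4 genotype comparisons, by -1.51 to -2.30. Of the 20486 genes tested, 599 were called higher and 517 lower with fasting in LWT CTRL liver, and 747 and 705 in LKO CTRL liver. Of the 11 genes, 2 were called higher and 1 lower in each of the 2 CTRL fasting comparisons, with median log2 fold changes of 0.04 in LWT and -0.07 in LKO liver. Acot7, Acot9, Acot10, Acot13, Them4 and Baat were called in none of the 12 comparisons of 2 groups. The heat map of the family shows this split.

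**Figure D5:**
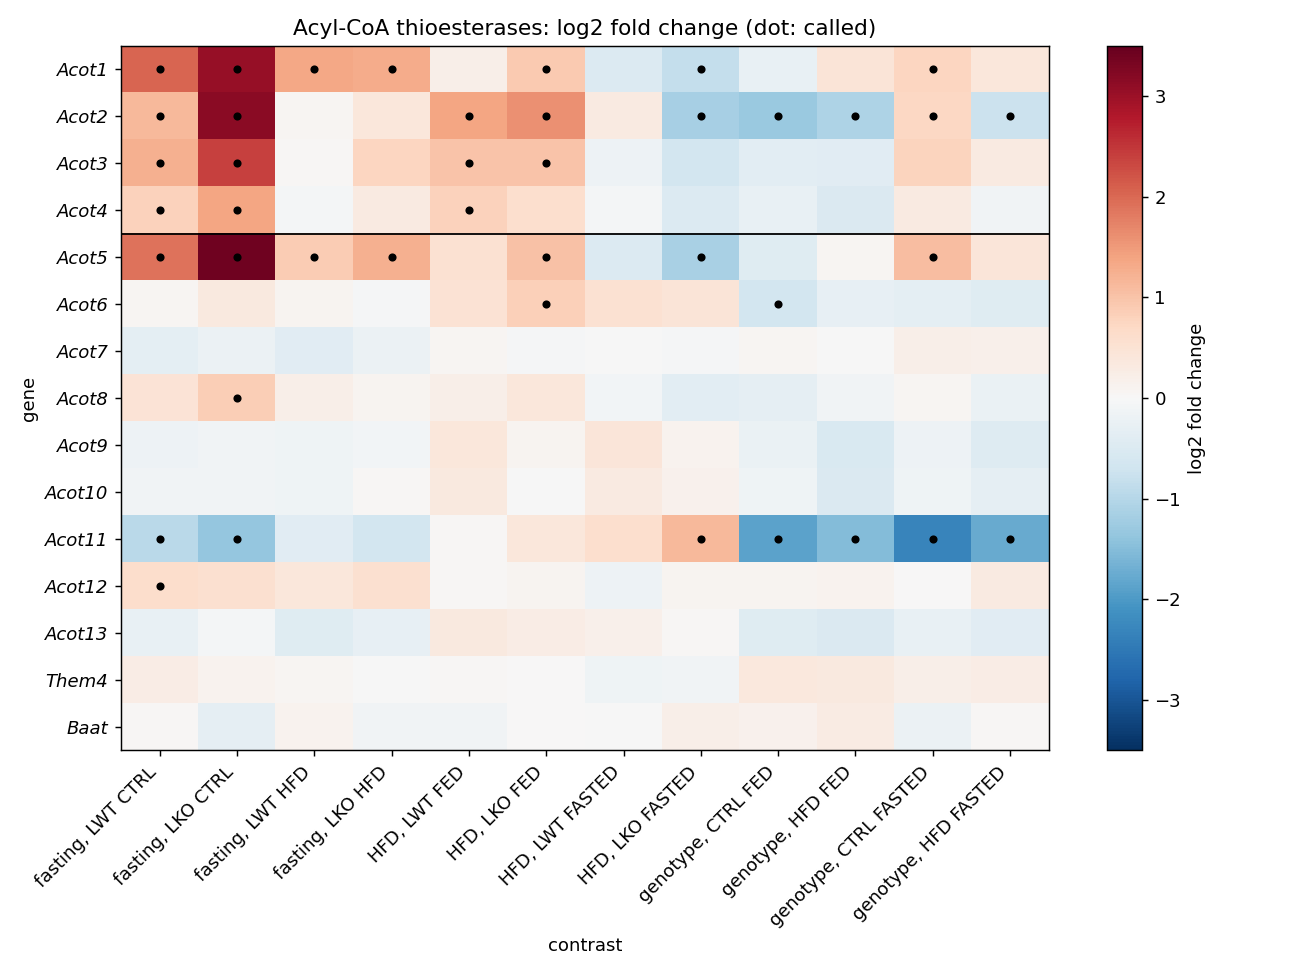
Log2 fold changes (colour, scale at right) of 15 acyl-CoA thioesterase genes (rows) in the 12 comparisons of 2 groups (columns), with a dot where a gene was called. The line separates Acot1 to Acot4 from the rest, and of the rows below it Acot5 carries the most dots in the fasting columns.

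PPARα and its textbook targets form the pathway these genes are usually placed in. Of 34 genes listed, 33 were tested. On the CTRL diet fasting raised 17 of them in LWT liver (median log2 fold change 0.59) and 27 in LKO liver (0.98), and lowered none, where 2.92% and 3.65% of all genes were called higher. The fatty acid hydroxylases Cyp4a14 (3.70 in LWT, 3.83 in LKO, limma adjusted p = 1.47e-09 and 5.3e-10) and Cyp4a10 (2.78 and 3.29) led in LWT liver, and Pdk4, which restrains pyruvate oxidation (1.33 and 4.13), led in LKO liver. On the HFD the fast raised 3 in LWT (Angptl4, Cyp4a10, Cyp4a14) and 5 in LKO liver (Angptl4, Cyp4a10, Ehhadh, Fgf21, Pdk4). The medians there were 0.17 and 0.06, and 2.25% and 2.75% of all genes were called higher.

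In fed liver the HFD raised 9 of the 33 in LWT and 17 in LKO mice, and lowered none, against 2.64% and 1.29% of all genes called higher. In fasted LKO liver it lowered 6 and raised 1, Cd36, a fatty acid translocase, while 199 of all 20486 genes were called lower and 188 higher. The diet by fasting difference in LKO liver was called lower for 25 of the 33 (median -0.88), and in LWT liver for 8 (median -0.43), against 1.78% and 0.596% of all genes. Genotype by fasting on the CTRL diet was called higher for 6 (Acaa1b, Crat, Ehhadh, Fgf21, Pdk4, Pex11a, with a median of 0.38), against 0.639% of all genes. Ppara itself rose with fasting on the CTRL diet, by 0.66 (limma adjusted p = 8.4e-10) in LWT and 0.78 (8.52e-12) in LKO liver. In fed CTRL liver 6 targets and 2.2% of all genes were called lower in LKO mice, Cd36 by -2.60 and Pex11a, a peroxisome division protein, by -1.57 among them. The 4 Acot genes had larger medians than this list in both CTRL fasting comparisons, 1.19 and 2.72, which describes these genes and was not tested.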

How the data were processed

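Liver RNA of 48 male mice was hybridised to one-colour Agilent 60K mouse arrays with Cy3, 1 array per mouse, on 6 slides washed in 2 batches. The deposited scanner values are spot intensities, which the authors extracted with Agilent Feature Extraction 10.10.1.1. The deposited log2 values are those of 32437 probes after the authors' filtering, washing bath correction and quantile normalization. Every column of that table has a median of 7.69 and correlates with its own array at 0.999997 or more, so its log2 scale and direction are settled.

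From the scanner files, the median signal was put on the log2 scale, and outlier spots were left out. Probes had to be flagged well above background by the scanner software on 5 or more of the 6 arrays in some group, which left 30793 of 56605. This filter is a choice made here, because the study does not name one. The washing batch was removed with group means protected, and arrays were quantile normalized. limma 3.58.1 (R 4.3.3) was fitted with array weights on 8 group means, and the Benjamini-Hochberg adjustment of p-values ran over these 30793 probes. The brightest probe stands for a gene, and calling a gene took a fold change above 1.5 with an adjusted p no larger than 0.05. The steps were tested on simulated data with changes placed in the fasting comparison of LWT CTRL mice. Differences of differences were not checked in this way. Replicate numbers were not treated as pairing the mice. The number of arrays limits the precision, and p-values measure the spread between mice. Named genes were the members, their 5 most correlated genes and the listed pathway genes, of which 1 is not reported here. The members, lists and tests were chosen with earlier results of these data known. Alternatives are given in the closing section.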

Additional observations from a re-analysis of the deposited data

Results flagged for a closer look

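Of 32 sets of 6 arrays (4 genes in 8 groups), 1 had an array far from the others. Acot1 in fasted LWT HFD replicate 1 was at 14.09 on the log2 scale, while the next value was 14.54. Chance marks about 1 in 20 such sets.

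Effects were called as differing between groups in 8 of the 24 differences tested for the 4 genes by limma. In the comparisons with such calls, 0.596% to 1.78% of all genes were called in the same direction. Between genotypes, the fasting response on the CTRL diet differed for Acot1 by 1.01 and for Acot2 by 2.01. Between diets in LKO liver it differed by -1.76 for Acot1, -2.76 for Acot2, -1.62 for Acot3 and -1.07 for Acot4. In LWT liver it differed by -0.88 for Acot4. The diet effect in fasted liver differed between genotypes by -1.47 for Acot2. Leaving out any 1 of 15 arrays lost the call of Acot1 between genotypes. The same held for any 1 of 4 arrays for Acot3 in LKO liver and any 1 of 2 arrays for Acot4 in LWT liver.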

How the results depend on the processing

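Across 17 alternatives, 1159 of 1224 values for single genes kept their side of the threshold, 41 lost a call and 24 gained one. No called value reversed, and 20 of the 1159, all uncalled, changed sign. On leaving out 1 array at a time, 1091 of 1152 values kept their side of the threshold, 42 lost and 19 gained a call. Of the 1091, 22 uncalled values changed sign. No scaling moved the median over all genes by more than 0.1.

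The number of the 4 genes called moved by more than 1.5 times as follows, and the cause was not tested. In washing batch 1 alone it was 1 for fasting in LWT CTRL, 0 for HFD in LKO fasted and for genotype in HFD fasted, 1 for genotype by fasting on CTRL, 2 for diet by fasting in LKO, and 0 for diet by fasting in LWT and for genotype by diet in fasted liver. In batch 2 alone it was 1 for HFD in LWT fed, 0 for HFD in LKO fed, genotype in CTRL fasted, genotype by fasting on CTRL, diet by fasting in LWT and genotype by diet in fasted liver, and 2 for diet by fasting in LKO. Each batch holds 3 arrays per group in place of 6. Without array weights or without the filter, genotype by fasting on CTRL and genotype in CTRL fasted had 1 call each and genotype in HFD fasted 0. Genotype by fasting on CTRL also had 1 call without the washing correction or with only the groups compared. With the slide as a block, genotype in CTRL fasted had 1. With no fold threshold, genotype in HFD fed had 2. Median scaling and the processed signal each gave 1 for HFD in LWT fasted. Fasting in LKO HFD had 2 with the median over probes, and 2 with the other probe of Acot3 and Acot4, an alternative chosen after seeing the data, which also gave 2 for diet by fasting in LWT. Smaller moves included HFD in LKO fed, which fell from 3 to 2 without array weights, without the filter and in batch 1 and rose to 4 under 7 other settings, and diet by fasting in LKO, which fell from 4 to 3 without weights or filter. Genotype by fasting on CTRL and genotype in CTRL fasted both rose from 2 to 3 with the median over probes and with the other probe.

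Leaving out 1 array gave 0 to 2 calls for diet by fasting in LWT, 1 to 2 for fasting in LKO HFD and genotype in HFD fed, 1 to 3 for genotype by fasting on CTRL, genotype in CTRL fasted and HFD in LKO fasted, 0 to 1 for genotype in HFD fasted and HFD in LWT fasted, 2 to 4 for HFD in LKO fed, 2 to 3 for HFD in LWT fed and 3 to 4 for diet by fasting in LKO. The other 7 counts did not move.

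Samples with the same replicate number did not deviate together as a rule (168 pairs, correlations from -0.35 to 0.34, median 0.012, 39 pairs above 0.1). The numbers were therefore not treated as pairs, and pairing between single groups was not tested. With the replicate block, Acot4 was called for HFD in LKO fed (0.60, limma adjusted p = 0.0154), and no other call changed.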

Other observations

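The enzymes that work against the thioesterases, acyl-CoA synthetases, were tested for 15 of 17 genes listed. On the CTRL diet fasting raised 5 and lowered 4 of them in LWT liver, where 599 of all 20486 genes tested were called higher and 517 lower. Acsl1, which activates long-chain fatty acids, rose by 0.77 on the log2 scale (limma adjusted p = 1.4e-07), while Acss2, the cytosolic acetyl-CoA synthetase, fell by 1.29 (2.11e-10) and Acsl3 by 1.02 (5.28e-08). In LKO liver 4 rose and 1 fell, against 747 and 705 of all genes. Acss2 was lower in LKO than LWT liver in fed mice on either diet, at -1.14 (2.49e-08) on CTRL and -1.45 (1.87e-11) on HFD.

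Of 12 genes for coenzyme A synthesis and breakdown, Vnn1, a pantetheinase, rose with fasting on the CTRL diet by 1.35 (limma adjusted p = 4.35e-06) in LWT and 3.10 (1.17e-14) in LKO liver. Its response was 1.75 (0.00075) larger in LKO liver. Nudt7, a peroxisomal coenzyme A diphosphatase, was at -0.78 (0.00736) and -1.40 (5.21e-06). The other 10 genes were not called in either comparison.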
